A study of Homo sapiens with 6 samples.

Results

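The junctions described here are the sense overlapping circRNAs measured in PANC-1 and its resistant derivative PANC-1-GR that lie outside the SNORD113/SNORD114 small RNA cluster. The deposited table lists 7746 back-splice junctions. Those whose category is sense overlapping and whose host name does not begin with SNORD113 or SNORD114 were taken as members. The rule used no measured value, but it was chosen with earlier results of these data known. There were 866 members (11.2% of the listed junctions) in 689 host gene names, with 4522 junction reads over 6 libraries. The 50 sense overlapping junctions of SNORD113 and SNORD114 were left out. The table also gives a source for each junction. The source column names an earlier collection for 219 members (147 circBase and 72 Guojunjie2014), with 2134 reads in 185 host names, and these are called catalogued. It marks the other 647 as from no earlier collection, with 2388 reads in 551 host names, and these are called uncatalogued.

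PANC-1 is an established human line grown from a pancreatic duct carcinoma. PANC-1-GR was selected from it over 40 weeks in Gemcitabine, a deoxycytidine analogue, raised from 0.1 to 200 μg/ml, and was then kept under periodic doses of 10 μg/ml. Each line, parental (PANC-1) and resistant (PANC-1-GR), gave 3 RNA libraries, in which the listed junction reads came to between 9222 and 13689. Nothing in the labels tells whether separate cultures were used within a line, so p-values measure only the spread between these libraries. PANC-1-GR is 1 line from 1 selection, whether it is a clone is not given, and the RNA extraction text of the labels speaks of tumor tissue and plasma while the titles and sources name the cell lines. Of the 10 ductal and epithelial marker genes looked up as hosts of any listed junction, KRT19 alone was present, with 3 reads, and of 4 mesenchymal genes ZEB1 was present with 54 reads. None of the fibroblast, blood, endothelial, acinar or endocrine markers was a host. Linear mRNA was not analysed here, so the label of the cells could be checked on junctions only.

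A circRNA forms when the spliceosome joins an exon's end to its own start or to that of an exon upstream, which leaves a closed RNA with no free ends that exonucleases degrade slowly. A read across the joint has its parts in the reverse of their genomic order, and programs find circRNAs by looking for such reads. RNA of neighbouring near copies of a gene is known to be able to give reads in that order as well. Sense overlapping is the class that annotation schemes commonly use for a junction on the strand of a gene that is placed neither in its exonic nor in its intronic class. The table itself does not define the word.

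Most members had a span that matched no exon-to-exon distance of their host, while nearly all exonic junctions had one that did. The members are by label outside the exonic class, so this contrast may largely restate how the categories were assigned. The span of an exonic junction, from the start of one exon to the end of the same or a later one, could be found among the exon distances of its host in GENCODE 29 for 6409 of 6551 junctions with a matched host (97.8%). For the members this held for 116 of 826 (14%), with 12.6% of the uncatalogued and 18.4% of the catalogued members. No hg19 genome was used here, so the bases at the junctions were not read. Lengths alone were compared, since GENCODE 29 is on another build, and a match of length does not place a junction. Of the members described below, those in MED13L (7173 bp), ZNF609, KCNMA1, GALK2 and SPC24 and the 21098 bp member in ZNF124 had a span that matched. Either boundary was shared with a listed exonic junction in 315 members (36.4%), among them 227 uncatalogued (35.1%) and 88 catalogued ones (40.2%), and both boundaries in 2. The predicted length column equalled the genomic span for all 866 members and for 5.63% of the exonic junctions, so that for members it carries no information on splicing. Strands were balanced, with 438 members on the plus and 428 on the minus strand. The host also had an exonic junction for 553 members (63.9%), and 799 had a host that RefSeq calls protein coding, 16 a lncRNA host and 17 a host of another type.

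**Figure D1:**
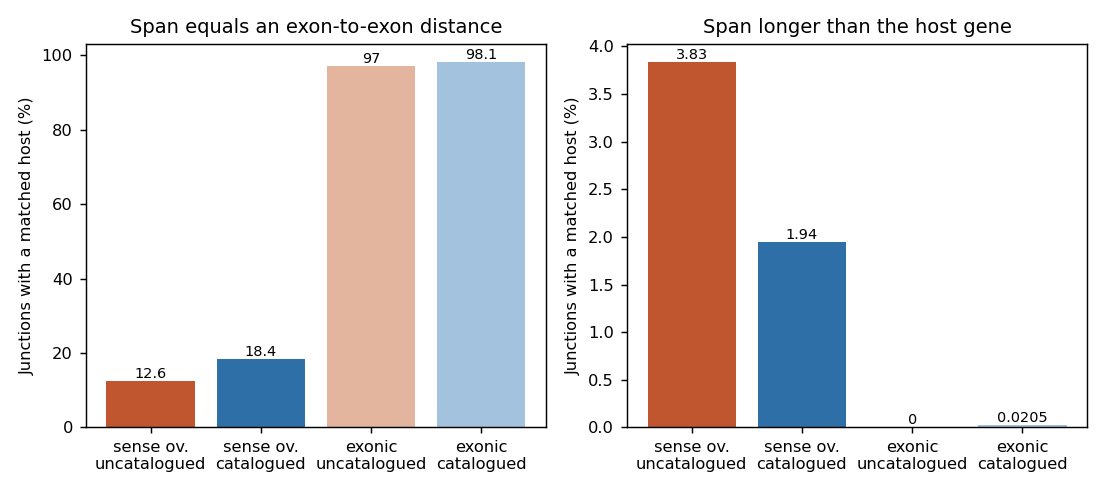
Share of junctions (%, of those whose host could be matched) whose span equals an exon-start to exon-end distance of the host in GENCODE 29 (left) and whose span is longer than the host gene in RefSeq (right), in uncatalogued and catalogued sense overlapping (sense ov.) and exonic junctions. Sense overlapping junctions matched an exon distance in 12.6% and 18.4% and exonic ones in 97.0% and 98.1%, and spans longer than the gene were 3.83% and 1.94% against 0% and 0.0205%.

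Members ranged from 153 to 99178 bp in span. The median was 14960 bp in uncatalogued and 10108 bp in catalogued members, against 13020.5 bp in uncatalogued and 8123 bp in catalogued exonic junctions, so that uncatalogued junctions were the longer ones in both classes. The longest uncatalogued member lay in ASAP1, which encodes a GTPase-activating protein for Arf, and had 2 reads, both in a PANC-1 library. The longest catalogued member, of 92280 bp in GALK2, had 4 reads in PANC-1 replicate 3 and 4 in PANC-1-GR replicate 2 and none elsewhere. At the short end were a mitochondrial junction of 153 bp in MTND5, a host named for a subunit of respiratory complex I, with 3 reads, and a 296 bp junction in SPC24 (hsa_circ_0007223), which encodes a component of the kinetochore NDC80 complex, with 4 reads. The SPC24 junction was the 1 member whose span equalled the length of an exon of its host.

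In 28 of 832 members with a host in RefSeq (3.37%) the span exceeded the length of the host gene, against 1 exonic junction (0.0153%). These were 24 uncatalogued and 4 catalogued members with 266 reads in all. 16 of the 28 had reads in 1 library only. In some the excess was small, as in HPRT1 with a span of 40693 bp against a gene length of 40504 bp. Whether annotation differences account for such cases was not tested. The 6 that had reads in every library held 199 of the 266 reads, and for each of these 6 a gene or pseudogene with the same symbol stem as the host lies within one span of it in RefSeq. Over all 28 this held for 10, among them a junction in LINC00640, whose neighbours share only the general LINC prefix. The hosts of other junctions were not looked up. Of the 6, a pair in HLA-C, a class I major histocompatibility gene, had spans of 85107 and 85094 bp, and HLA-B is the neighbour. A pair in CDK11B, a cyclin-dependent kinase gene next to its near copy CDK11A, spanned 64072 and 65172 bp. The fifth, of 27832 bp, lay in ALPP, the placental alkaline phosphatase gene, beside ALPG, the germ cell form, and the sixth, of 61088 bp, in RRP7A, an rRNA processing gene, beside the pseudogene RRP7BP. No source used here gives how the authors' counting treated reads that match near-identical copies, so the host of these junctions is uncertain, and the part of the neighbouring copies in their reads was not tested. CDK11B, RRP7A, LINC00640, HPRT1, the 85094 bp HLA-C junction and MICA were named after their values were seen.

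The 85107 bp HLA-C junction (hg19 chromosome 6, 31238163 to 31323269, minus strand) had 5, 5 and 9 reads in the parental and 11, 9 and 11 in the resistant libraries, 50 in all. As levels this is 5.99 ± 3.08 junction reads per 10000 in the parental and 9.30 ± 1.11 in the resistant libraries (mean ± SD, n = 3), and the lines overlapped. The 85094 bp junction had 2, 2 and 1 reads against 4, 4 and 5, without overlap. The fitted log2 fold changes were 0.65 for the first and 1.28 with a standard error of 0.80 for the second, neither past the threshold given below. ALPP had 2, 10 and 5 reads against 2, 5 and 8, CDK11B 4, 9 and 10 against 8, 8 and 15 at 64072 bp and 6, 2 and 4 against 6, 4 and 7 at 65172 bp, and RRP7A 4, 2 and 1 against 4, 2 and 3. All of these overlapped between the lines. The long MICA junction, in a gene for a stress-induced ligand of natural killer cells next to MICB, spanned 94800 bp and had 2, 0 and 0 reads against 2, 3 and 0.

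On the mitochondrial chromosome lay 7 members. They are all of the mitochondrial junctions in the table, and all were uncatalogued, with 14 parental and 28 resistant reads. A junction of 162 bp in the host name OK/SW-cl.16 held most of them, with 2, 3 and 2 reads in the parental and 10, 4 and 3 in the resistant libraries. Its lines touched at 3 reads but not as levels, which were 2.11 ± 0.437 and 4.80 ± 2.31 per 10000 (SD, n = 3), and its log2 fold change of 1.18 (standard error 0.69) did not pass the threshold. Mitochondrial transcripts of human cells have no introns. This junction was named after its values were seen.

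Uncatalogued and catalogued members differed first in how often they recurred. 414 of the uncatalogued members (64%) had reads in 1 library only, and 370 (57.2%) had just 2 reads in 1 library, which is the lowest value the table lists. Among catalogued members 33 (15.1%) and 31 (14.2%) did. Reads in every library were found for 21 uncatalogued members (3.25%) and 31 catalogued members (14.2%). The median was 2 reads over the 6 libraries in uncatalogued and 5 in catalogued members, and 105 uncatalogued (16.2%) and 122 catalogued members (55.7%) had at least 5. The exonic class showed the same order, with 57.0% of uncatalogued and 18.2% of catalogued junctions in 1 library only and 1.55% and 17.6% in all 6. At the top of the range, 13 of 647 uncatalogued members reached 20 reads, against 8 of the 1678 uncatalogued exonic junctions. The table lists a junction only where some library has at least 2 reads, so junctions below that are not seen in either class.

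**Figure D2:**
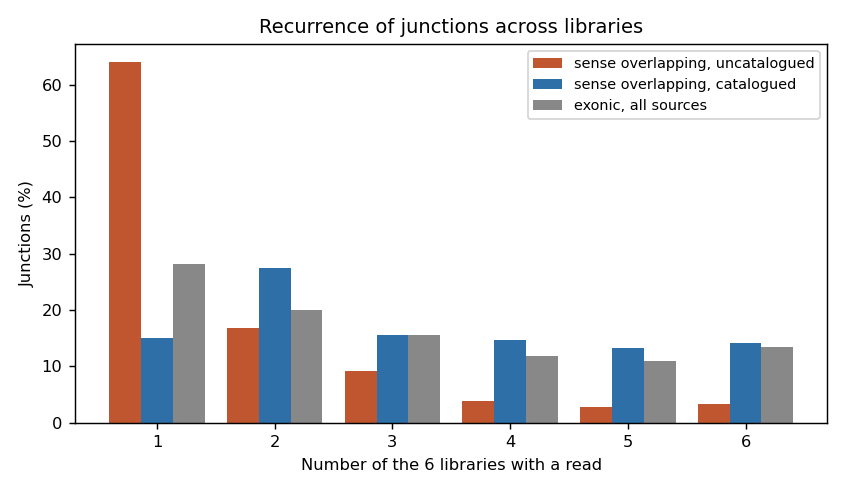
Percentage of junctions (y axis) by the number of the 6 libraries in which they had a read (x axis), for uncatalogued and catalogued sense overlapping junctions and for exonic junctions of all sources. Uncatalogued sense overlapping junctions were in 1 library only in 64%, catalogued ones in 15.1% and exonic ones in 28.1%.

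Within each library the uncatalogued members had fewer reads per junction. The means were 0.689, 0.646 and 0.471 reads per uncatalogued junction in the parental and 0.810, 0.478 and 0.597 in the resistant libraries. For catalogued members they were 1.59, 1.54 and 1.32 against 2.09, 1.46 and 1.74. The catalogued value was the higher one in 6 of 6 libraries, with a mean difference (uncatalogued minus catalogued) of -1.01 reads (0.615 ± 0.130 against 1.62 ± 0.267, SD, n = 6, two-sided exact sign-flip permutation test p = 0.0312, the smallest that 6 libraries allow). The share of junctions with a read was 29.1% ± 4.61 in uncatalogued and 54.3% ± 3.44 in catalogued members (SD, n = 6), a difference of -25.3 percentage points in the same direction in 6 of 6 libraries (exact p = 0.0312). With members of at least 5 reads alone, the difference in the share was -5.22 percentage points (exact permutation p = 0.156). The 6 libraries come from 2 related lines and are not independent of them.

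Set against the exonic class, the members as a whole had fewer reads per junction, 0.870 ± 0.159 against 1.53 ± 0.226 (SD, n = 6, exact sign-flip permutation p = 0.0312, lower in 6 of 6 libraries). The classes differ in their make-up, since 647 of 866 members and 1678 of 6585 exonic junctions were uncatalogued. Within uncatalogued junctions the members had 0.615 and the exonic ones 0.581 reads, so that the difference turned to 0.0338 ± 0.0380 reads in favour of the members (higher in 5 of 6 libraries, exact permutation p = 0.0938). Within catalogued junctions the members had 1.62 and the exonic ones 1.86 reads, lower in 6 of 6 libraries (exact permutation p = 0.0312). The share of junctions with a read was 35.5% in members and 49.7% in exonic junctions over all sources, and 29.1% and 29.9% within the uncatalogued ones (difference -0.81 percentage points, exact permutation p = 0.281). Within the catalogued ones it was 54.3% and 56.4%, a difference of -2.11 percentage points (lower in 6 of 6 libraries, exact permutation p = 0.0312). The ratio of reads per uncatalogued junction to reads per catalogued junction was 0.434, 0.419 and 0.356 (parental) and 0.387, 0.328 and 0.343 (resistant) for members, and averaged 0.378 against 0.312 in the exonic class. It was higher in members in 6 of 6 libraries (mean log2 difference 0.27, exact permutation p = 0.0312). The comparisons within a source and the ratio were added after the data were seen.

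**Figure D3:**
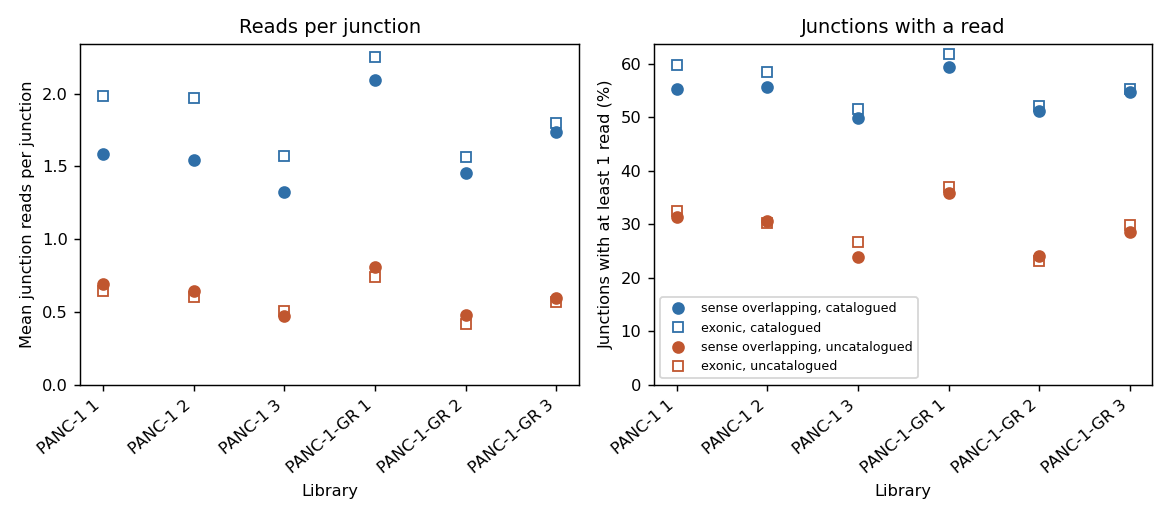
Mean junction reads per junction (left) and percentage of junctions with at least 1 read (right) in each of the 6 libraries, for uncatalogued and catalogued junctions of the sense overlapping (filled circles) and exonic (open squares) classes. In every library catalogued junctions lie above uncatalogued ones, with 6-library means of 1.62 against 0.615 reads in the sense overlapping class, while the classes lie close to each other within the uncatalogued junctions.

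The most abundant catalogued members were read in every library. MED13L, a gene of the Mediator kinase module, held the member with the most reads (hsa_circ_0000443, 7173 bp, chromosome 12, 116668338 to 116675510, minus strand), with 14, 9 and 12 reads in the parental and 16, 10 and 11 in the resistant libraries. Its level was 10.7 ± 2.69 and 10.9 ± 0.794 per 10000 (SD, n = 3), and the lines overlapped. The host had 2 exonic junctions with 23 reads, fewer than this 1 member.

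ZNF124, a zinc finger gene, had 5 members with 186 reads and 1 exonic junction with 9 reads. The 3408 bp member (chromosome 1, 247319708 to 247323115) had 12, 12 and 11 reads against 15, 8 and 13, and the 4248 bp member (hsa_circ_0002922) 4, 13 and 11 against 17, 14 and 11. A 2814 bp member (hsa_circ_0005667) had 4, 4 and 5 against 2, 8 and 8, one of 21098 bp had 11 reads in all and one of 4302 bp had 3, all of these in PANC-1. The first 3 overlapped between the lines. Of the 5, 4 share the boundary at 247323115, so they are not independent of each other.

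ZNF609, another zinc finger gene, is known for a circle that was studied in muscle cells. Its 874 bp member (hsa_circ_0000615, chromosome 15, 64791492 to 64792365) had 7, 11 and 7 reads in the parental and 10, 16 and 16 in the resistant libraries. The levels were 7.54 ± 1.74 and 13.1 ± 5.20 per 10000 (SD, n = 3), with an overlap at PANC-1-GR replicate 1. The ratio of summed reads, scaled to the reads of each line, was 1.65 with a 95% Clopper-Pearson interval from 0.982 to 2.82. Such intervals cover counting error only.

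LYPLAL1, a lysophospholipase-like gene, had 5 members with 131 reads and no exonic junction. The 25631 bp member (hsa_circ_0004314) had 10, 6 and 11 reads against 19, 8 and 11, and the 48227 bp member (hsa_circ_0004417) 2, 6 and 7 against 9, 10 and 11. Both overlapped as levels, and the second had a ratio of 1.96 (interval 1.02 to 3.93). The other 3 members, all uncatalogued, had 14, 4 and 3 reads. MRPL22, a gene of the large mitochondrial ribosomal subunit, had a 16417 bp member with 8, 10 and 9 reads in the parental and 12, 13 and 4 in the resistant libraries, with the lowest and the highest library both in PANC-1-GR.

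Of the other uncatalogued members with many reads, one lay in NFE2L2, which encodes the NRF2 regulator of the oxidative stress response, with 4, 3 and 8 reads in the parental and 4, 5 and 3 in the resistant libraries over a span of 2383 bp. FAM216A (17094 bp) had 6, 1 and 4 against 6, 4 and 4, and ASXL1, a chromatin regulator gene (24784 bp), had 5, 3 and 7 against 3, 4 and 3. All of these overlapped between the lines. The exonic junctions of ASXL1 had 546 reads, so that its member was a small addition to a host with abundant circles, while NFE2L2 had no exonic junction.

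**Figure D4:**
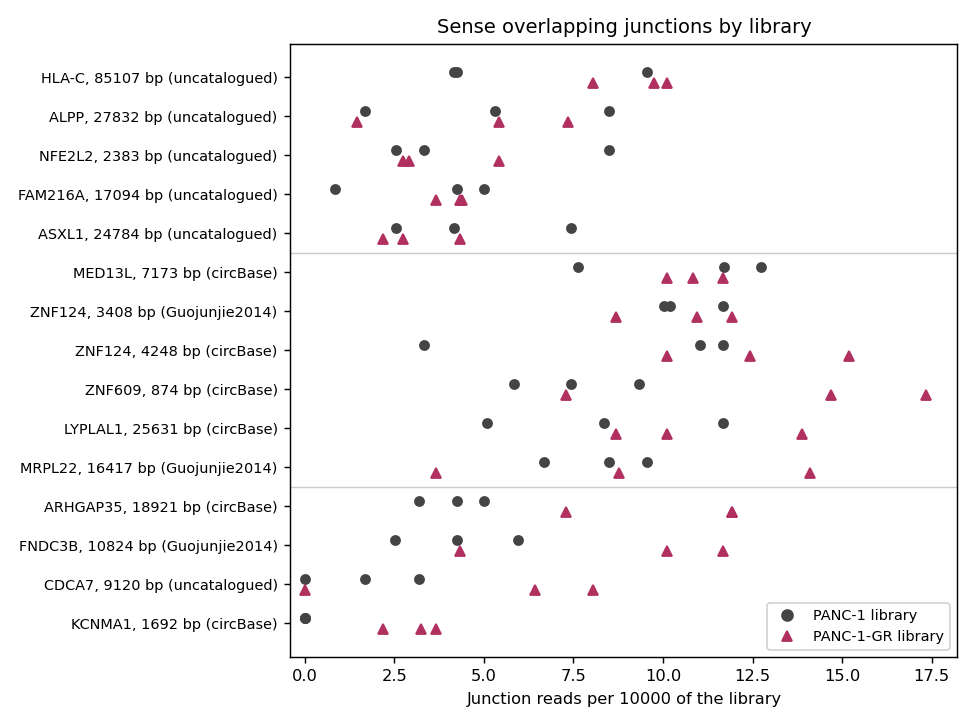
Junction reads per 10000 listed junction reads of the library (x axis) for 5 uncatalogued (top) and 6 catalogued (middle) members among those with the most reads and the 4 called members (bottom), 1 point per library, PANC-1 as circles and PANC-1-GR as triangles. In the upper groups the lines overlap for each junction, and KCNMA1 is at 0 in the 3 PANC-1 libraries.

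The 4 host names with the most members were ASAP1 with 7, FNDC3B with 6, and ZNF124 and LYPLAL1 with 5 each. 568 of the 689 host names had 1 member and 8 had 5 or more. The 7 of ASAP1 were thinly read, with 21 reads in all and between 2 and 6 each, beside 8 exonic junctions with 347 reads. FNDC3B, which encodes a fibronectin type III domain protein of the endoplasmic reticulum, had 62 reads, 45 of them in 1 member, beside 12 exonic junctions with 86 parental and 152 resistant reads. A start or end was shared with another member in 193 members (22.3%), so counts of members are not counts of independent events.

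The line comparison asked which junctions differ between cells with and without acquired resistance to Gemcitabine. Few members were deep enough for it. With at least 3 reads in at least 3 libraries required, 54 members (6.24%) were tested among 969 junctions, against 13.5% of the exonic class. The 54 comprised 19 uncatalogued (2.94% of the uncatalogued ones) and 35 catalogued members (16% of the catalogued ones). In the exonic class 1.31% of uncatalogued and 17.7% of catalogued junctions were tested. A call needed a 2-fold or larger change with p no higher than 0.05, unadjusted, in the quasi-likelihood test of edgeR. 4 members were called (7.41% of 54), where the share over the whole table was 4.23%, and all 4 were higher in PANC-1-GR, where 2.79% of all tested junctions were called higher and 1.44% lower. With 4 junctions this share was near the background. Of the 54, 2 reached the filter through the PANC-1-GR libraries alone, the KCNMA1 member and the 85094 bp HLA-C member, so that their direction was set by the filter, and none did through PANC-1 alone. None had a Benjamini-Hochberg adjusted p under 0.05, the smallest among members being 0.93 in edgeR, and DESeq2 called 2 and the exact test of edgeR 4. At an unadjusted p of at most 0.05 alone edgeR passed the same number, 4 members, where the share over the table was 5.06%. The lines did not overlap in 6 members (11.1%), all higher in PANC-1-GR, where 10.8% of all tested junctions did not overlap and 6.71% were higher and 4.13% lower. The KCNMA1 and HLA-C members just named are among the 6. Without the filter on low counts 13 of 866 members were called (11 higher and 2 lower), where the share over the table was 1.6%.

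Taken over all tested members the log2 fold change had a median of 0.13, with 31 above 0 and 23 below. Over all tested junctions the median was -0.04, with 450 above and 519 below. The 31 include the 2 members, in KCNMA1 and HLA-C, whose direction was set by the filter. Uncatalogued members had a median of -0.20 (7 above 0 and 12 below) and 1 call, and catalogued members a median of 0.31 (24 above and 11 below) and 3 calls. Members that passed the filter are the deeply read ones and do not stand for all 866.

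KCNMA1 encodes a potassium channel that opens with calcium and voltage, and had its member (hsa_circ_0008766, 1692 bp, chromosome 10, 79009323 to 79011014, minus strand) at 0, 0 and 0 reads in the parental and at 3, 3 and 4 in the resistant libraries. Set against a floor of 3 reads over the 3 PANC-1 libraries, its PANC-1-GR reads were 3.27-fold higher, a value that leaves out their own counting error. The counting interval of the ratio starts at 2.20. This member was tested only because of its reads in PANC-1-GR, so its call is a description. The gene's 3 exonic junctions had 9 parental and 5 resistant reads, so other circles of the gene were read in both lines.

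ARHGAP35 encodes a GTPase-activating protein, which switches off small GTPases. Its member hsa_circ_0000943 (18921 bp, chromosome 19, 47421745 to 47440665, plus strand) had 6, 5 and 3 reads in the parental and 10, 11 and 13 in the resistant libraries. All 3 PANC-1-GR libraries were above all 3 PANC-1 libraries, at 4.15 ± 0.920 and 10.4 ± 2.67 per 10000 (SD, n = 3), with a log2 fold change of 1.23 and a standard error of 0.49 (adjusted p 0.93 in edgeR). Other members of the gene, named after their values were seen, went without such a rise, with 3, 7 and 3 reads against 5, 0 and 4 at 3869 bp and 5, 2 and 1 against 3, 1 and 1 at 71188 bp. With a prior count of 2 the log2 fold change was 0.98, which is under the threshold.

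FNDC3B had a called member of 10824 bp (chromosome 3, 171969050 to 171979873) with 3, 7 and 4 reads in the parental and 16, 4 and 11 in the resistant libraries, and the lines overlapped. One boundary of it is also that of a listed exonic junction. The log2 fold change was 1.07 (standard error 0.50), and 0.77 without PANC-1-GR replicate 1, 0.79 without PANC-1 replicate 1, 1.05 without PANC-1 replicate 3 and 0.98 without PANC-1-GR replicate 3, each of which ended the call, as did a prior count of 2 (0.84). CDCA7, a MYC-responsive gene of a partner of the chromatin remodeller HELLS, had an uncatalogued member of 9120 bp (chromosome 2, 174223440 to 174232559) with 2, 0 and 3 reads in the parental and 11, 0 and 7 in the resistant libraries. Each line held a library at 0, and one boundary is shared with a listed exonic junction. Its log2 fold change of 1.70 (standard error 0.73) was 1.11 without PANC-1 replicate 2, 1.10 without PANC-1-GR replicate 1 and 1.54 without PANC-1-GR replicate 3, and each of these ended the call. DESeq2 called neither FNDC3B nor CDCA7.

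Summed over all members the junction reads per 10000 were 664, 641 and 631 (parental) and 717, 681 and 704 (resistant). The means of 645 ± 16.7 and 701 ± 18.4 (SD, n = 3) did not overlap, at an exact permutation p of 0.1, the smallest that 3 against 3 can give. Uncatalogued members had 373, 355 and 323 against 383, 335 and 354 (350 ± 24.9 and 357 ± 24.0, exact permutation p = 0.8). Catalogued members had 291, 287 and 308 against 335, 346 and 350 (295 ± 11 and 343 ± 7.95, exact permutation p = 0.1), without overlap. Of the difference of 48.4 reads per 10000 in catalogued members, the 3 called ones held 13.8 and the rest 34.6. The mean was higher in PANC-1-GR for 121 of the 219 catalogued and 329 of the 647 uncatalogued members. This was not counted over all listed junctions. The uncatalogued share of the member reads was 54.2% ± 2.62 in the parental and 51.0% ± 2.15 in the resistant libraries (SD, n = 3, exact permutation p = 0.2). With members of at least 5 reads alone the share was 39.1% and 34.7%, a difference of -4.42 percentage points (exact permutation p = 0.1), and no difference of this kind could go below 0.1. The reads are from bulk RNA, in which fewer cells with a circle and less of it per cell cannot be told apart.

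**Figure D5:**
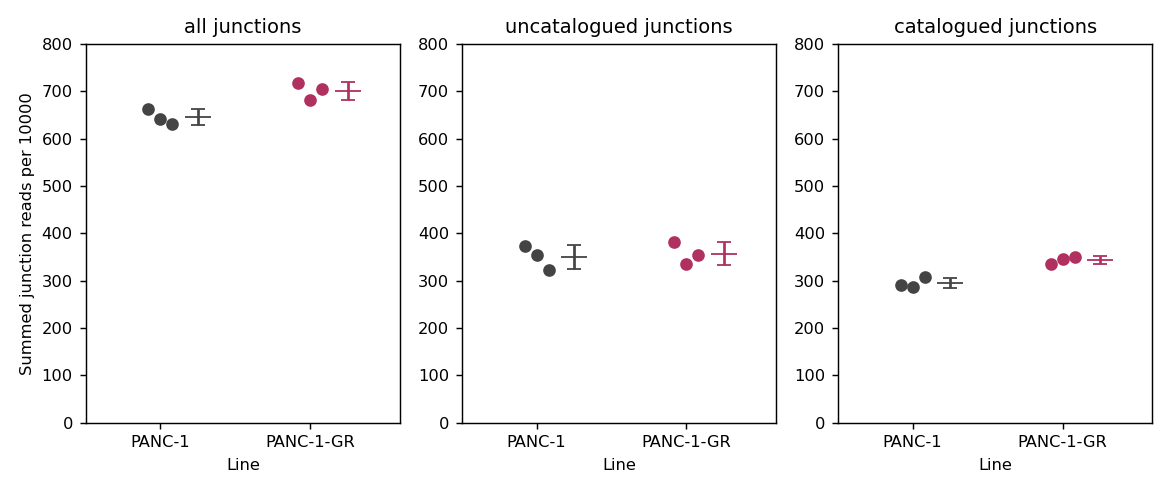
Summed junction reads per 10000 listed junction reads of the library for all, uncatalogued and catalogued sense overlapping junctions, 1 point per library, with the mean and SD of the 3 libraries of each line beside them. Catalogued junctions lie at 287 to 308 for the parental and 335 to 350 for the resistant line, and uncatalogued ones overlap.

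Of the members, 5 are among the 10 circRNAs that the study took to qRT-PCR. Since they were picked by the study from the same libraries, their direction in these libraries is not independent evidence. Beside ARHGAP35 these are ASH1L, a histone methyltransferase gene, with 3, 4 and 0 reads in the parental and 1, 0 and 0 in the resistant libraries (hsa_circ_0008161), and TMLHE, a gene of carnitine synthesis, with 2, 4 and 2 against 0, 0 and 0 (hsa_circ_0006355). Set against the floor of 3 reads, TMLHE was 2.72-fold lower in PANC-1-GR. The counting interval of its ratio, PANC-1-GR over PANC-1, ends at 0.575. KIFAP3, a gene of the kinesin-2 complex, had 1, 0 and 1 reads against 5, 1 and 7, and DCUN1D4, a gene of cullin neddylation, 2, 0 and 0 against 8, 0 and 5. Except for ARHGAP35 they were below the filter and were not tested. By qRT-PCR the paper found the DCUN1D4 circle just named among the most clearly raised in PANC-1-GR. It also reports this circle as raised in plasma of non-responsive patients, and studied it by silencing and overexpression. The paper used the ASH1L circle as a negative control in plasma, since its change by qRT-PCR was not significant. Those measurements are separate from the libraries used here.

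Reads in all 3 libraries of one line and in none of the other were found in 6 members (0.693%), against 1.2% of all listed junctions. RAB7A, a late endosome GTPase gene, had 1, 2 and 2 reads in PANC-1-GR only and C1GALT1, a mucin-type O-glycan synthase gene, 1, 1 and 2. In PANC-1 only were a second DCUN1D4 junction of 53536 bp with 1, 1 and 3 reads, opposite to the junction of 50642 bp above, and NFX1, a zinc finger transcription factor gene, with 3, 1 and 1. KCNMA1 and TMLHE complete the 6. NFX1 and C1GALT1 were named after their values were seen. Apart from KCNMA1 and TMLHE the 6 were at 5 reads or fewer, and set against the floor of 3 reads they differed by at most 1.70-fold.

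DCTD encodes deoxycytidylate deaminase, which also acts on the monophosphate of Gemcitabine, and it was looked up after the values were seen. It had 4 members, all circBase entries, and 1 exonic junction with 3 reads in PANC-1. The 24173 bp member (hsa_circ_0002212) had 1, 4 and 2 reads in the parental and 3, 0 and 4 in the resistant libraries, and the 24227 bp member 2, 1 and 0 against 0, 1 and 3. The other 2 had 2 reads each, in PANC-1-GR. In total this was 10 against 15 reads, and the lines overlapped.

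By host name, 36 members in 29 hosts had lncRNA-type symbols, with 12 catalogued members among them. None was deep enough to be tested, and their summed level was 20.1, 11.9 and 20.2 per 10000 (parental) against 24.8, 28.2 and 16.5 (resistant), which overlap. Zinc finger genes with ZNF symbols had 28 members in 20 hosts, of which 5 were tested by edgeR and none was called, with a median log2 fold change of 0.44 among the 5 and no member with an unadjusted p of at most 0.05 beyond the 4 called ones. Most of the 5 are ZNF124 members that share a boundary, and the median itself is a ZNF124 value. Small RNA, ribosomal protein and collagen symbols had 1 member each, and histone and keratin symbols none.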

How the data were processed

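RNA of 3 PANC-1 and 3 PANC-1-GR libraries was sequenced. The authors deposited junction read counts per circRNA and library, with source, category, host, hg19 coordinates and predicted length, and also log2 CPM values made with edgeR, which were not used. CASAVA 1.8, BWA and hg19 appear in the submitters' processing notes, and the program that found the junctions was not given in the sources read here. A further 1 line of the table held no values and was not used. The files hold no sequence and no hg19 genome was used, so boundaries were compared by length only, with GENCODE 29 and RefSeq.

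Counts of the 969 junctions with at least 3 reads in at least 3 libraries were fitted with edgeR 4.0.16 (R 4.3.3, TMM, all listed reads as library size, two-sided quasi-likelihood test). Per-library values were compared by exact permutation over libraries. Alternatives were other scaling, DESeq2 1.42.0, the edgeR exact test, other filters, a prior count of 2, a replicate block and each library left out. The edgeR step was tested on simulated data. The members, lists and alternatives were chosen with earlier results of these data known. Named were the 6 uncatalogued and 6 catalogued members with the most reads, called members, members among the 10 circRNAs of the study, the 4 hosts with the most members, the longest and shortest spans, and up to 4 members read in one line only. Of these, 1 is not reported here.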

Additional observations from a re-analysis of the deposited data

How the results depend on the processing

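Against 4 called members and 41 called junctions over the table, DESeq2 called 2 and 14, no filter 13 (11 higher and 2 lower, of 866 members) and 124, at least 10 reads in 3 libraries 1 (of 7 tested) and 6, and a prior count of 2 called 2 and 21. Leaving out 1 library gave 4 to 5 members, with 2 to 4 of the 4 calls shared and 1 lower call without PANC-1-GR replicate 1 (in NNT, named after its values were seen), and 38 to 52 junctions. Same-numbered libraries were hardly correlated (r 0.0236, 0.0111 and 0.0114), and the numbers were not taken as pairs in the main tests. A figure legend of the paper calls the lines paired, and low correlations on so few reads cannot show that pairing is absent. With a replicate block 4 members were called, 3 of them shared, and 28 junctions, and FNDC3B was not among them (log2 fold change 1.03). The block gave an exact p of 0.25, its smallest, for the summed level of catalogued members.

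With members of at least 5 reads the uncatalogued minus catalogued share of junctions with a read was -5.22 percentage points, no longer past the threshold. Within uncatalogued junctions the sense overlapping minus exonic difference reversed to 0.0338 reads and shrank to -0.81 percentage points. The cause was not tested. Leaving out 1 library moved the difference in reads per junction between uncatalogued and catalogued members from -1.04 to -0.954 and that of catalogued summed levels from 44.2 to 54.6 per 10000. Most members were below the filter, and their differences between the lines rest on few reads.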
